A study of Mus musculus with 4 samples.

Results

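A set of 7 genes that mark developing muscle or its early differentiation was followed in muscle satellite cells, the stem cells of skeletal muscle: Myh3, Myh8, Myl4, Tnnt2, Actc1, Des and Cav3. They were taken as every probe set of the array whose platform gene symbol is 1 of these 7 names, which gave 11 of the 45101 probe sets and 7 of 18193 named genes. Satellite cells were sorted by YFP directly from the muscle of mice 10 weeks old, 2 weeks after tamoxifen, and were not cultured. Control cells had the genotype Pax7Cre/+::Calcr +/+::Rosa-YFP/YFP, and conditional knockout (cKO) cells carried Calcr flox/flox, on the same Pax7Cre and Rosa-YFP alleles and with the same tamoxifen. Cre was driven from the Pax7 locus, which is active in satellite cells. Each group held 2 samples titled biological replicates, with 1 array each. The labels do not say how many mice went into a sample, and p-values measure only the spread between these samples. The comparison asks whether cells that lost the calcitonin receptor carried more or less of the transcripts that accompany commitment to muscle.

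Skeletal muscle replaces its contractile proteins as it matures. Myh3 (embryonic) and Myh8 (perinatal) encode the myosin heavy chains of developing and regenerating fibres, Myl4 the embryonic and atrial essential light chain, Tnnt2 the cardiac troponin T that developing skeletal muscle also makes, and Actc1 the cardiac alpha-actin that precedes skeletal alpha-actin. Des encodes desmin, the muscle intermediate filament, which is present already in myoblasts, and Cav3 the muscle caveolin, which appears as myoblasts differentiate. A quiescent satellite cell is Pax7-positive and not differentiated, and these genes are taken here as markers of early commitment. Actc1 and the brighter Des probe set were nonetheless bright in the uncultured control cells, with mean signals of 1745 and 1640.

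The values were MAS5 signals, linear intensities that combine the probes of a probe set, and differences are given as cKO minus control on the scale of log2(signal + 1). The median array signals lay between 57.8 and 70.4, and with 2 arrays a group this number limits the precision. Calcr itself read 1268 and 1424 in control cells against 568 and 684 in cKO cells, lower in cKO as the labels have it; the labels do not say whether its probe set reads the deleted part. Satellite cell markers were bright on all arrays, with Pax7, the defining transcription factor, at 2319 and 3647 in control and 2170 and 2434 in cKO. Of 12 such markers, 1 was higher in cKO and 11 lower (median log2 difference -0.16), against 42.7% higher over all genes. They summed to 23746 and 32855 in control and 23991 and 26093 in cKO. Control replicate 2 was the highest array for 11 of the 12, against 39.8% of all genes, and without it the median was 0.13. The arrays were not alike in other cell types. The summed endothelial signal on replicate 1 was 7787 in control and 7132 in cKO, while on replicate 2 it was 853 and 1109. Of 11 endothelial markers, 10 were at least 2-fold brighter on replicate 1 in both groups. Leukocyte markers (13 genes) summed to 1558 and 2758 in control and 1628 and 611 in cKO. Of the 7 above the filter, 6 were lower in cKO, where 42.7% of all genes were higher. Between the arrays numbered 1, Cd74, H2-Aa, H2-Eb1, Lyz2 and Cd68 were higher in cKO, and Laptm5 and Fcer1g lower. Between those numbered 2, all but Cd68 were lower. The part of leukocyte transcripts in the results was not tested. In bulk samples, fewer cells of a type and less RNA per cell cannot be told apart.

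Of the 7 genes, 5 were bright enough to be tested between cKO and control cells, and none of the 5 passed. Of the 11 probe sets, 7 lay above the brightness filter (a mean log2 value that corresponds to a signal of 63.9, the median of all probe sets) and were tested, covering Myh3, Myl4, Tnnt2, Actc1 and Des. The other 4, among them the only probe sets of Myh8 and Cav3, lay below it and are given as values. In the limma fit over 22519 probe sets, 0 of the 7 had an adjusted p under 0.05, as did 0 (0%) of all probe sets. At an unadjusted limma p under 0.05 there were 0 of 7, against 163 (0.724%) of all. That share lies well below the 0.05 that evenly spread p-values would give, so the test was conservative here. With the replicate number added to the fit as a block, the count over all was 473. The targeted gene Calcr was not called either (log2 difference -1.11, unadjusted limma p 0.0029, adjusted limma p 0.99999). The lack of calls therefore does not show that there was no difference. Among the 7, the smallest unadjusted limma p was 0.206, for Myh3. Of the 7 probe sets, 6 had a difference above 0, against 41.1% of all probe sets, and the median was 0.09 on the log2 scale, against -0.06 over all. This share is a description of probe sets that were chosen together and share genes. The arrays of the groups did not overlap in 1 of 7 (14.3%), and in 21.4% of all probe sets. By the rule of a 2-fold difference without overlap there were 0 of 7, against 0.546% of all. In 6 of 7 the replicates of cKO differed from each other by more than the groups did.

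**Figure D1:**
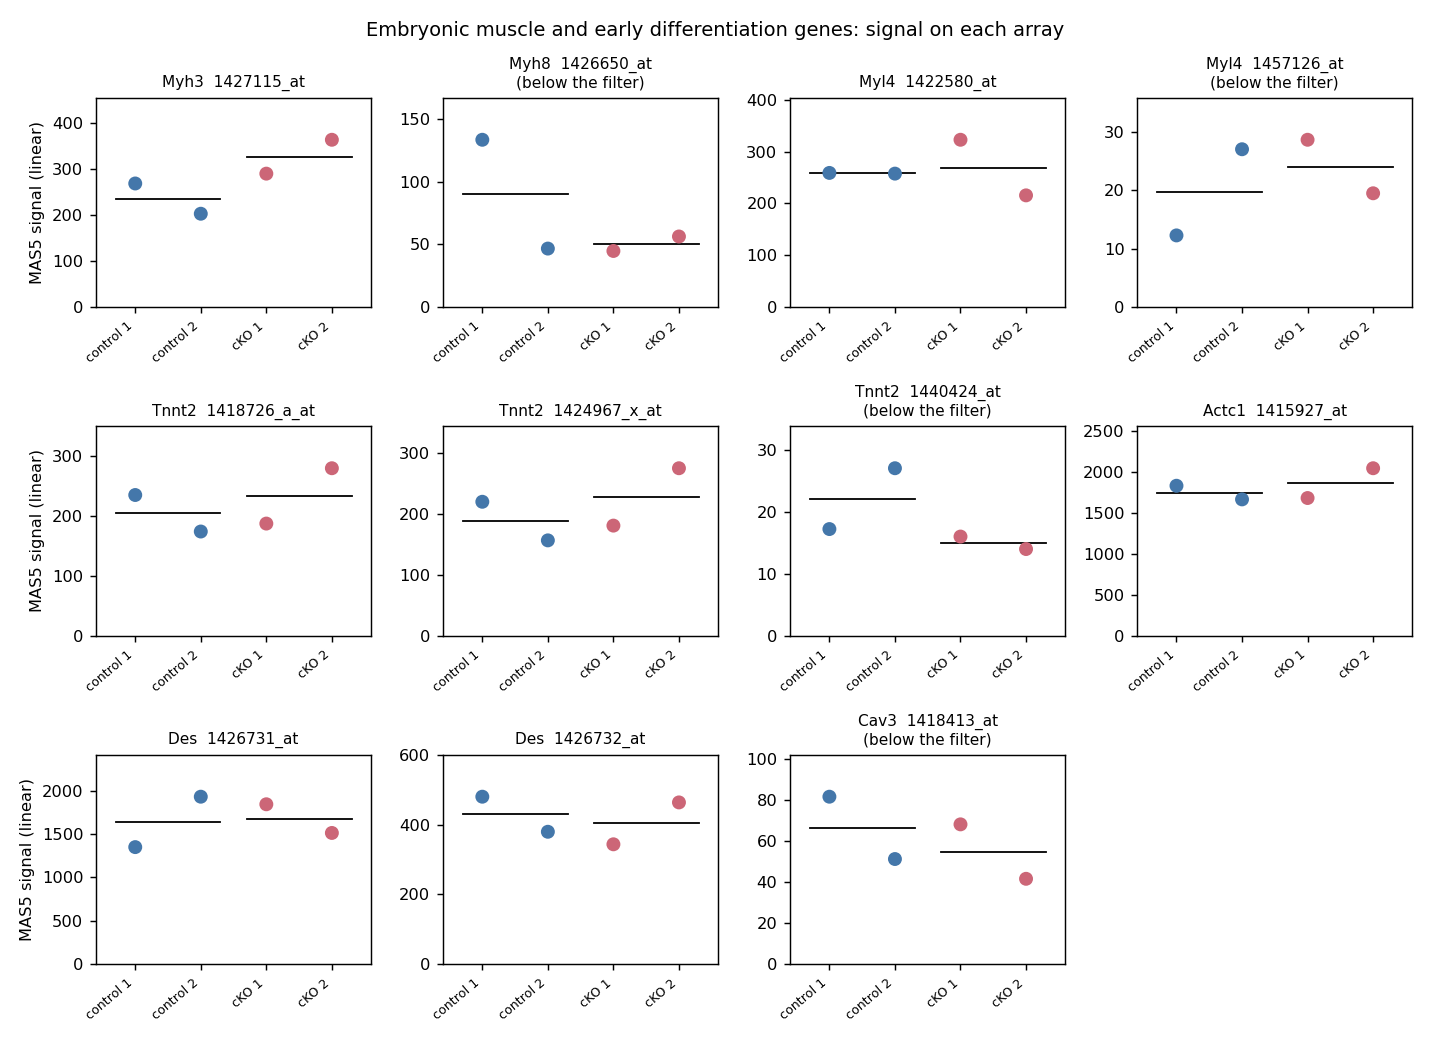
MAS5 signal (linear, from 0) of each of the 11 probe sets on the 4 arrays, control in blue and cKO in red, with a black line at each group's mean. Myh3 is the only tested probe set with both cKO points above both control points, while Myh8 stands out by the single high point of control replicate 1.

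Among the myosin heavy chains, Myh3 was the gene of this group with the largest tested difference. Its probe set read 269 and 203 on the control arrays and 290 and 364 on the cKO arrays. Both cKO values lay above both control values, a pattern found for higher signals in cKO in 7.87% of all probe sets. Means were 236 ± 46.5 in control and 327 ± 52.1 in cKO (SD, n = 2), a 1.39-fold difference. On the log2 scale this was 0.47 (SE 0.34), with an adjusted limma p of 0.99999. The 95% interval ran from 0.798-fold to 2.42-fold, so it held both no difference and a 2-fold one. Between the arrays numbered 1 the difference was 0.11, and between those numbered 2 it was 0.84. The distance from cKO replicate 1 to control replicate 1 was thus small. Myh3 kept its sign under all 11 alternative settings, from 0.27 to 0.68. As its groups did not overlap, leaving out 1 array could not turn the sign. The filter, trend and block settings leave the difference as it is. The kept sign therefore adds nothing to the lack of overlap.

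Myh8, the perinatal heavy chain, showed a different picture. It read 133 and 46.6 in control and 44.7 and 56.2 in cKO. One array, control replicate 1, was high, and the other 3 were close together below the filter signal, so the groups overlapped. As the mean of log2 values turned back to a signal, it stood at 62.9, just under the filter of 63.9, and the gene was not tested. Its log2 difference was -0.64, and without control replicate 1 it was 0.10. The array profile of Myh8 was almost that of Myh4, the adult fast IIb heavy chain. After each was centred on its mean over the 4 arrays, they differed by a root mean square of 0.0045 on the log2 scale. Myh4 read 288 and 101 in control and 97.8 and 122 in cKO. Of 10140 genes compared with Myh8, only 2 lay within 0.2, Myh4 and Hjv (0.18), the hemojuvelin gene, which is expressed in muscle. The next was Adamtsl1, at 0.22. Myh3 was not like them (0.68 from Myh8). On chromosome 11 the annotation (GRCm38.p6) places these genes in the order Myh3, Myh2, Myh1, Myh4 and Myh8, so that Myh4 and Myh8 are neighbours. Heavy chain genes are near-identical over long stretches, and whether the Myh8 probe set also reads Myh4 was not tested. With 4 arrays such a likeness is a description only.

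**Figure D2:**
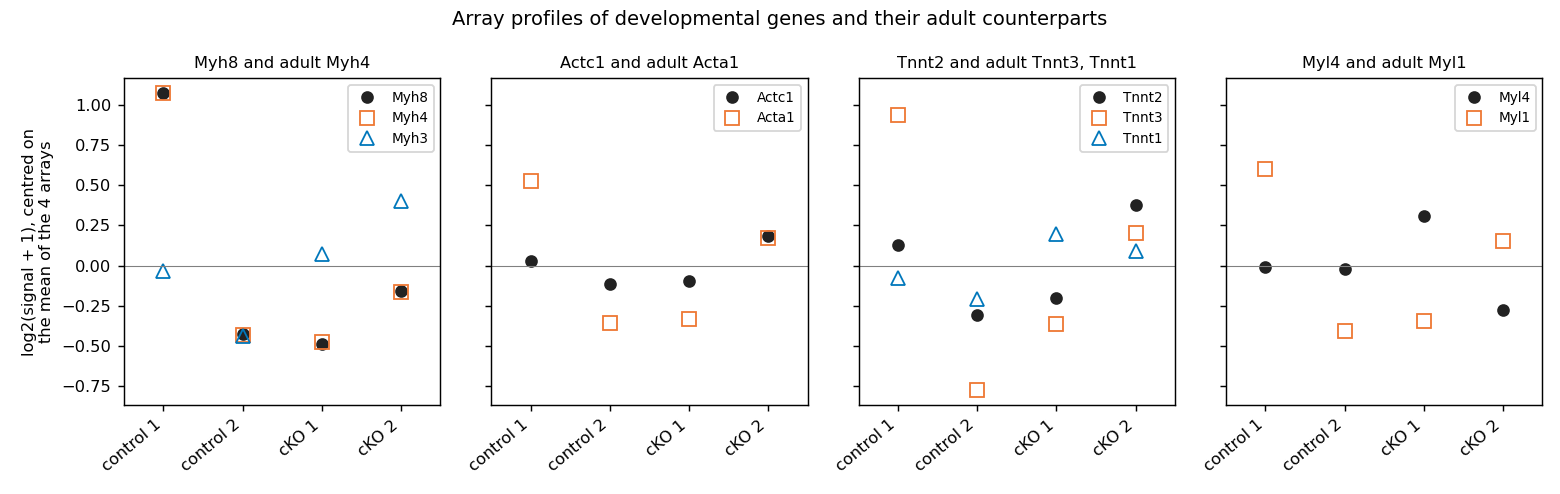
Log2(signal + 1) on each array, centred on the gene's mean over the 4 arrays (brightest probe set), for Myh8, Actc1, Tnnt2 and Myl4 (black points) beside adult genes of the same families (open symbols) and Myh3 (open triangles in the first panel). The points of Myh8 and Myh4 coincide, and Acta1, Tnnt3 and Myl1 stand highest on control replicate 1.

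For the thin filament genes, Tnnt2 and Actc1, the arrays fell in the same order, which was not that of the genotypes. The first Tnnt2 probe set (1418726_a_at) read 235 and 174 in control and 187 and 279 in cKO. The second (1424967_x_at) read 220 and 156 in control and 181 and 275 in cKO. Actc1 read 1829 and 1662 in control and 1679 and 2042 in cKO. In all 3, cKO replicate 2 was highest, then control replicate 1, then cKO replicate 1, and control replicate 2 was lowest, so the groups overlapped. Over centred profiles the 2 Tnnt2 probe sets differed by a root mean square of 0.05, and Actc1 differed from the first by 0.15. The probe sets of Tnnt2 may read shared sequence, so they are not independent measurements.

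The group differences of these genes were small. For Tnnt2 the log2 differences were 0.18 (SE 0.37) and 0.26 (SE 0.38), which are 1.13-fold and 1.20-fold. Actc1 differed by 0.09 (SE 0.20), with means of 1745 ± 118 in control and 1861 ± 257 in cKO (SD, n = 2). The sign turned with the replicate number: Tnnt2 differed by -0.33 and -0.28 between the arrays numbered 1 and by 0.68 and 0.81 between those numbered 2. Actc1 differed by -0.12 and 0.30. The 95% interval for Actc1, from 0.763-fold to 1.48-fold, was the narrowest of the 7 and ends below a 2-fold difference. Another Tnnt2 probe set (1440424_at) was dim, at 17.3 and 27.1 in control and 16.0 and 14.0 in cKO. Both its cKO values lay below both control values, at signals far under the filter.

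The upstream sequences of Myh3, Tnnt2 and Actc1 are shown because Myh3 was the only tested gene whose groups did not overlap and the others shared 1 array order. They are the bases before the gene's outermost annotated start, from RefSeq. Capitals mark E-boxes (CANNTG), the motif that MyoD, myogenin and related factors bind, and the CArG box, bound by serum response factor.
Myh3 (GRCm38.p6, chr11:67078050-67078272, plus strand): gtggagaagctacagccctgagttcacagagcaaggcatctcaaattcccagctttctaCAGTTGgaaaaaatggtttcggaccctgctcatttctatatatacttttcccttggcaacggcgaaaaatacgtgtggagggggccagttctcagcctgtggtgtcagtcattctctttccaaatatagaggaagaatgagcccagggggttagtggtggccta
Tnnt2 (GRCm38.p6, chr1:135836084-135836314, plus strand): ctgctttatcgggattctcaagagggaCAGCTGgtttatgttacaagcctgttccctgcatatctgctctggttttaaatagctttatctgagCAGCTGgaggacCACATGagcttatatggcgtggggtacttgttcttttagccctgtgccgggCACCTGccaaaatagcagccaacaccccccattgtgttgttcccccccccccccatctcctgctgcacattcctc
Actc1 (GRCm38.p6, chr2:114052876-114053125, minus strand): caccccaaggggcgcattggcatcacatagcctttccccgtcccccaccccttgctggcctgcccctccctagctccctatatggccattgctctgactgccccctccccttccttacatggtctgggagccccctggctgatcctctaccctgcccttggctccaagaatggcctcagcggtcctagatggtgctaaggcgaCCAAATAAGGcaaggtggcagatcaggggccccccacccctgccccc
The Tnnt2 sequence holds 4 E-boxes, 2 of them with the letters CAGCTG, the Myh3 sequence 1 and the Actc1 sequence 0. The window of the other annotated Tnnt2 start, not shown, holds 1 E-box, with other letters. Actc1 holds 1 CArG box and the others 0. Motifs were searched on both strands in the 250 bases before each start, of which 223 are shown for Myh3 and 231 for Tnnt2, with the same counts of E-boxes and CArG boxes; CAGCTG matches are also counted as CANNTG. Over all 32851 such promoters, 66.2% hold CANNTG, 13.0% CAGCTG and 1.5% a CArG box, so 1 E-box is the common case. All 7 genes were found in the promoter table, with 8 windows. CAGCTG also occurs once each for Des and Cav3, and CANNTG does not occur in the Myl4 window. A match is a description of letters and not of binding, and the genes with an equal array order did not share these motifs in the windows shown.

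Myl4, the embryonic light chain, read 259 and 258 in control and 323 and 216 in cKO. The control arrays were nearly equal and the cKO arrays lay on either side of them. The groups differed by 0.03 on the log2 scale (SE 0.35), and the 95% interval ran from 0.578-fold to 1.81-fold. Its second probe set (1457126_at) was dim, at 12.3 and 27.0 in control and 28.7 and 19.5 in cKO.

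Desmin is made in myogenic cells, and both its probe sets were above the filter, but they disagreed across arrays. The brighter (1426731_at) read 1349 and 1931 in control and 1844 and 1513 in cKO. The other (1426732_at) read 481 and 380 in control and 344 and 465 in cKO. The first was lowest on control replicate 1, where the second was highest, and the centred profiles differed by a root mean square of 0.40. Their log2 differences were 0.05 (SE 0.25) and -0.10 (SE 0.33). Both overlapped between the groups. Between the arrays numbered 1 the differences were 0.45 and -0.48, and between those numbered 2 they were -0.35 and 0.29. Desmin is also made by pericytes and smooth muscle. Markers of those cells summed to 14804 and 16737 on replicates 1 of control and cKO, against 7667 and 6489 on replicates 2, and 8 of 13 were at least 2-fold brighter on replicate 1 in both groups. Neither Desmin probe set was higher on replicate 1 in both groups. The part that pericytes and smooth muscle have in the Des values was not tested.

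Cav3 lay just under the filter, at 58.8 by the same mean of log2 values. It read 81.8 and 51.3 in control and 68.3 and 41.6 in cKO. Replicate 1 was the brighter in both groups, by 0.66 in control and 0.70 in cKO on the log2 scale, while the genotypes overlapped with a difference of -0.28. Of the 7 genes it was the only one brighter on replicate 1 in both groups on every probe set. The tested Myl4 probe set was also brighter there, at 259 against 258 in control and 323 against 216 in cKO. Only the dim Myl4 probe set was not, in control. Cav1, the widely expressed caveolin, read 4659 and 4277 in control and 5055 and 3070 in cKO. Cav2, named here for its pattern after the values were seen, read 982 and 302 in control and 1138 and 281 in cKO. Of 7 caveolar genes above the filter, 3 were higher and 4 lower in cKO (median -0.02), 0 had arrays without overlap, against 20.6% of all genes, and 0 passed the limma test. The part that the endothelial transcripts have in the Cav3 values was not tested.

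**Figure D3:**
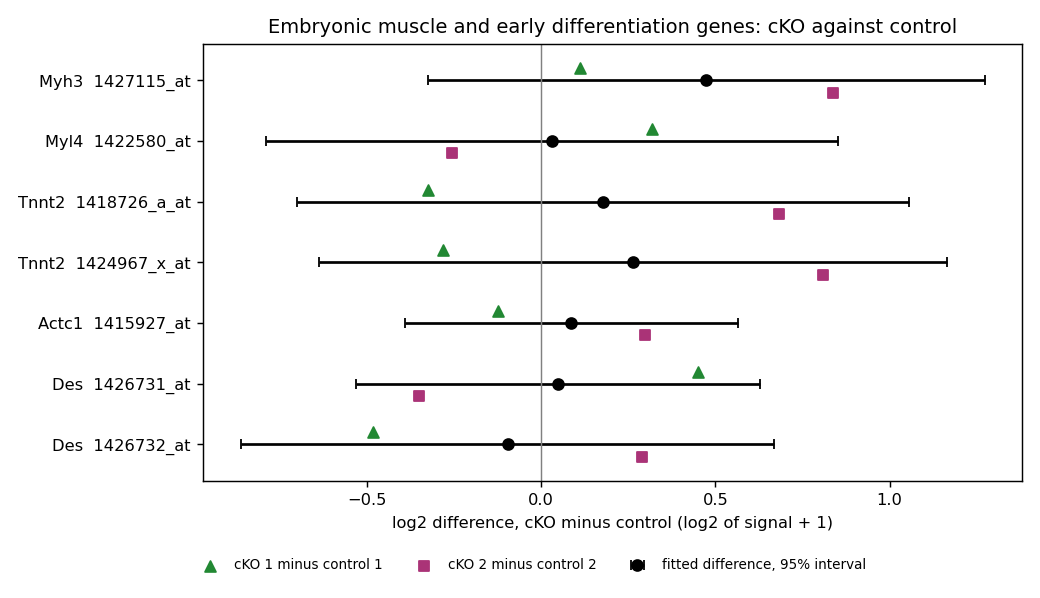
Log2 difference, cKO minus control, of the 7 tested probe sets (black points) with 95% intervals from the limma fit, beside the difference between the arrays numbered 1 (green triangles) and numbered 2 (purple squares). Every interval holds 0, and the green and purple symbols lie on the same side of 0 for Myh3 alone. For Myh3 they must do so, since its groups do not overlap.

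In 6 of the 7 tested probe sets the difference had opposite signs between the arrays numbered 1 and those numbered 2. Myh3 was the exception, which follows from its groups not overlapping and is no further trait. Transcripts of adult muscle fibres also differed between single arrays. The 33 genes of the adult sarcomere list summed to 12166 and 7657 in control and 9984 and 9804 in cKO. The median signal of the list was 200 and 151 in control and 141 and 185 in cKO, so the near-equal cKO sums hide a difference. The bright genes Tpm1 and Tpm2 read 1870 and 2271 on cKO replicate 1, against 955 and 1017 on cKO replicate 2. Of the 27 above the filter, 16 (59.3%) were highest on control replicate 1, against 17.1% of all genes, and 13 (48.1%) were lowest on control replicate 2, against 15.1%. Acta1, the adult alpha-actin beside Actc1, read 881 and 478 in control and 486 and 689 in cKO. Tnnt3, the fast fibre troponin T beside Tnnt2, read 349 and 106 in control and 141 and 209 in cKO. Both adult genes were lowest on control replicate 2, as Actc1 and Tnnt2 were, but highest on control replicate 1 and not on cKO replicate 2. Myl1, the adult light chain beside Myl4, read 480 and 238 in control and 249 and 352 in cKO, and Myl4 did not follow it (root mean square difference 0.53). The slow troponin T gene Tnnt1, counted below among genes of early differentiation and fusion, read 244 and 222 in control and 295 and 274 in cKO. Its groups did not overlap, with a log2 difference of 0.29 and an adjusted limma p of 0.99999. The part that fibre RNA has in the values of Actc1, Tnnt2 and Myh8 was not tested.

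Tnnt2, Actc1 and Myl4 are also genes of the heart. Of 10 cardiac markers, 9 were below the filter signal of 63.9 on every array, among them the atrial light chain Myl7, Tnni3 and Nkx2-5. The exception was Pln, phospholamban, which slow skeletal fibres also make, at 324 and 288 in control and 326 and 356 in cKO. The summed signal of the cardiac list, most of it from Pln, ran from 406 to 466 in control and from 436 to 484 in cKO. The Gapdh 3'/5' signal ratio, a sign of RNA integrity, was 1.54 and 1.59 in control and 1.56 and 1.71 in cKO, highest on cKO replicate 2, where Myh3, Tnnt2 and Actc1 were also highest. The same ratio of Actb went the other way, at 1.09 and 1.04 in control and 1.05 and 0.99 in cKO, lowest on cKO replicate 2. The part of RNA integrity in those values was not tested.

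**Figure D4:**
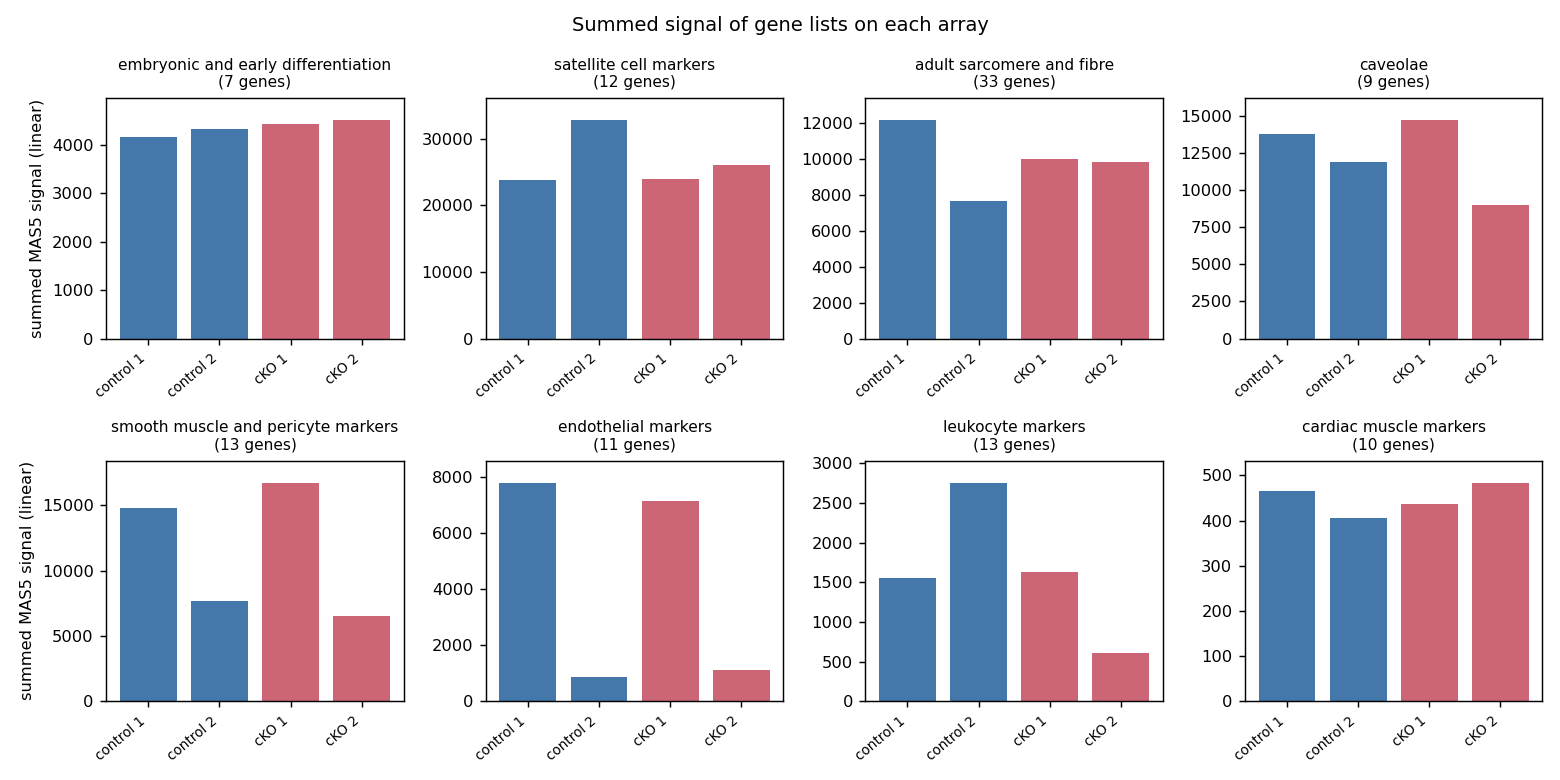
Summed MAS5 signal (linear, bars from 0) of 8 gene lists on each array, using the brightest probe set of each gene, control in blue and cKO in red. The 7 embryonic and early differentiation genes lie between 4155 and 4512 on all arrays, a sum made mostly by Actc1 and Des. Each gene alone varies more from lowest to highest array, from 1.23-fold for Actc1 to 2.98-fold for Myh8. Endothelial markers stand at 7132 or more on replicates 1 and at 1109 or less on replicates 2.

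Other genes of the myogenic programme gave no call either. Of 10 myogenic regulators above the filter, 4 were higher and 6 lower in cKO, with a median of -0.16, against -0.04 and 42.7% higher over all 10140 genes. Myod1, the commitment factor, was lower on both cKO arrays, at 1371 and 1191 in control against 1110 and 840. Myog, which drives differentiation and acts upstream of contractile genes such as Myh3, overlapped, at 2049 and 2475 against 2134 and 2665. Of 16 genes of early differentiation and fusion, 6 were higher and 10 lower (median -0.06), and 4 had arrays without overlap, which is 25.0% against 20.6% of all genes. Chrna1, a subunit of the acetylcholine receptor, was higher in cKO, at 476 and 525 against 649 and 717, a log2 difference of 0.45 (SE 0.28). It was as far apart between the arrays numbered 1 as between those numbered 2 (0.45 in each). Musk, the receptor kinase of the neuromuscular junction, was lower, at 677 and 952 against 528 and 583 (-0.53, SE 0.29). Mymx, a fusion peptide gene, read 61.2 and 219 in control and 117 and 473 in cKO, overlapping, with a log2 difference of 1.02 and an SE of 0.78. None of these had an adjusted limma p under 0.05.

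The structural partners of desmin and caveolin 3 were close to level in their median. Of 13 genes of intermediate filaments and the costamere, the complex that ties sarcomeres to the membrane, 5 were higher and 8 lower (median -0.06). The arrays did not overlap in 23.1% of them, 1 higher and 2 lower, against 20.6% of all genes. Flnc, filamin C, was higher on both cKO arrays, at 4959 and 4726 against 5758 and 5427 (log2 difference 0.21, SE 0.12). Dmd, dystrophin, was lower on both, at 1280 and 1083 against 974 and 1059 (-0.21, SE 0.24). Vim, the vimentin filament that accompanies desmin in myoblasts, was also lower on both, at 6550 and 6685 against 6357 and 6343 (-0.06). Of the adult sarcomere genes, 13 were higher and 14 lower (median -0.01), and 1 of 27 (3.7%) came under 0.05 in the unadjusted limma test, against 0.72% of all genes. This was Actn3, the fast fibre alpha-actinin, at 878 and 782 in control against 580 and 463 in cKO (-0.68, SE 0.28). Its adjusted limma p was 0.99999.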

How the data were processed

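Gene expression was measured on 4 arrays, 2 of control and 2 of cKO satellite cells. The deposited intensities, on a linear scale, were made by the authors with MAS5, per the submitters' processing notes. MAS5 can scale an array as a whole; its target, and detection calls, were not in the sources read. Symbols came from the platform annotation, which names 1 gene for 34945 of the 45101 probe sets, several for 932 and none for 9160, beside 64 AFFX controls. Looking up Entrez identifiers in the mouse gene table changed 0 symbols.

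Values were analysed as log2(signal + 1), without further normalization. AFFX probe sets were left out, and a probe set was kept when its mean log2 value reached the median of all (a signal of 63.9), which left 22519. Groups were compared with limma 3.58.1 in R 4.3.3 (lmFit, eBayes with an intensity trend, 2 residual and 5.32 prior degrees of freedom), with Benjamini-Hochberg adjustment at 0.05. All p-values of probe sets and the 95% intervals are 2-sided and from this fit. An exact permutation test of 2 against 2 arrays cannot go below a 2-sided p of 0.333. For related genes, the brightest kept probe set of each of 10140 genes was used. On simulated arrays of this comparison, with noise of the fitted size and 200 of 22519 probe sets changed, the fit found 9.25% of the 2-fold changes, 69.9% of those of 4-fold and 96.4% of those of 8-fold.

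The genes, lists and tests were chosen with earlier results of these data known. Named genes are the 7 genes, Calcr, up to 4 genes per list with the smallest limma p, the brightest markers, and the 3 genes closest in array profile to a gene spanning at least 1 log2 unit. Adult counterparts and genes named for a pattern fall outside this rule and were chosen with their values in view. The lists of fibro-adipogenic, leukocyte and Schwann cell markers had 4 of 6, 1 of 7 and 0 of 2 kept genes higher in cKO. Over all genes this share was 42.7%. The alternatives tried were arrays centred or quantile normalized, a pseudocount of 32, a filter at the 75th percentile or none, no trend, a replicate block, unsuffixed probe sets, the mean over probe sets, and leaving out each array.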

Additional observations from a re-analysis of the deposited data

How the results depend on the processing

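Under the alternatives that kept all 4 arrays, the sign of no tested probe set of these genes turned, and 0 of them reached an adjusted limma p under 0.05 under any setting, those without an array included. The range of the log2 difference without each array in turn held both signs for Actc1 (-0.055 to 0.23), Tnnt2 (-0.11 to 0.47 and -0.037 to 0.57), Myl4 (-0.26 to 0.32), Des (-0.21 to 0.31 and -0.31 to 0.12) and, below the filter, Cav3 (-0.63 to 0.074), Myh8 (-1.39 to 0.10) and the dim Myl4 probe set (-0.19 to 0.89). Myh3 stayed between 0.27 and 0.68, and its sign could not turn because its groups did not overlap. Both Tnnt2 probe sets were not tested with the filter at the 75th percentile.

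Over all probe sets, limma called 0, 5 with a replicate block and 0 to 5 without single arrays (0 without control replicate 2 or cKO replicate 2, 1 without control replicate 1, 5 without cKO replicate 1). The block moved no group difference of these genes, since each number occurs once a group. Replicate numbers pair nothing in the labels; the differences between replicates 1 and 2 correlated at 0.43 between the groups, over 22519 probe sets. The count at least 2-fold apart without overlap, 123 (27 higher, 96 lower), was 47 with a pseudocount of 32, 2727 without a filter, 22 with the filter at the 75th percentile and 507 to 1103 without single arrays. It was 50 higher and 64 lower after quantile normalization, and 45 and 72 with centred arrays. Without single arrays, medians ran from -0.51 to 0.31 for adult sarcomere genes, -0.46 to 0.23 for caveolar genes, -0.37 to 0.13 for satellite cell markers, -2.11 to -0.35 for leukocyte markers, -0.29 to -0.01 for myogenic regulators, -0.10 to 0.10 for early differentiation genes, -0.15 to 0.01 for costamere genes and 0.027 to 0.23 for the tested genes of this set. Such medians ran from -1.77 to 1.87 for endothelial, -2.26 to 0.85 for Schwann cell and -0.55 to 1.19 for smooth muscle and pericyte markers. Where 1 array is left out, the lone sample is assumed to vary like the other group. The causes were not tested. Dim probe sets limit Myh8 and Cav3.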
